A study of Oryza sativa with 16 samples.

Results

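The d1 mutant of rice was compared with wild type (WT) at stage 7, the last of 4 sampled stages of panicle initiation. Genes were kept where at least 1 FPKM (sequenced fragments, corrected for the length of the transcript and the size of the library) was reached in at least 2 of the 8 combined columns, which left 19757 of 34302 rows. Stage 7 accounts for 4 of the 16 libraries, 2 from d1 and 2 from WT.

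RNA came from shoot apical meristems that had been dissected out of the leaf sheaths of Oryza sativa plants and frozen. The d1 plants carry the d1-1 allele of RGA1, and WT plants carry no such allele according to the labels. Plants of both genotypes were 3 months old and had grown in a greenhouse for 100 days, and both were sampled at stages 1, 2, 4 and 7. The labels do not define the stage numbers, the hour of collection, the WT cultivar, or how many plants went into a library. The authors' table holds 1 value per gene for each genotype and stage, into which the 2 libraries of that group had already been combined. The values below are therefore the authors' combined FPKM with no SD or n, the read depth behind each value is unknown, and no test between d1 and WT can be made within a stage. Differences are log2(FPKM + 1) of d1 minus WT, a scale that understates the change of low genes, and a gene is called past the limit where its difference reached 1 in either direction.

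RGA1 encodes the alpha subunit of the heterotrimeric G protein, a membrane-bound switch that binds GTP in its active state and works with beta and gamma subunits. Loss of the alpha subunit gives the dwarf plants, broad leaves, compact panicles and small round grains for which d1 is known. The shoot apical meristem is the group of dividing cells at the tip of the stem, and at panicle initiation it stops making leaves and forms the branches and spikelets of the inflorescence.

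RGA1 was still represented in the mutant at stage 7. Its value (OS05G0333200 on chromosome 5, an identifier taken from general knowledge) was 24.1 FPKM in d1 and 29.8 FPKM in WT, a ratio of 0.809. The difference of -0.29 lay beside -0.31, -0.48 and -0.35 at stages 1, 2 and 4, so that d1 was below WT at every stage without reaching the limit. What the d1-1 change does to the transcript is not given in the labels, so this value does not check the genotype.

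At stage 7 far more genes were lower in d1 than were higher. Past the limit, 303 genes were lower, which is 1.53% of those compared, and 117 were higher, which is 0.592%. Together these 420 genes made up 2.13%, against 1.98%, 2.8% and 1.68% at stages 1, 2 and 4, so stage 7 did not stand out by how many genes differed. Its balance was another: lower genes were 72.1% of those past the limit at stage 7, while the earlier stages leaned less that way or the other way. Stage 1 had 90 lower genes (0.456%) and 301 higher ones (1.52%), stage 2 had 216 lower (1.09%) and 338 higher (1.71%), and stage 4 had 189 lower (0.957%) and 142 higher (0.719%). The distribution was drawn out on the lower side as well. The 1st percentile of the differences was -1.22 and the 99th was 0.85, around a median of 0.01. The same percentiles were -0.68 and 1.22 at stage 1, -1.04 and 1.25 at stage 2, and -0.98 and 0.91 at stage 4. At stage 4 the lower side was thus slightly the longer as well. Leaning to lower values at stage 7 was found under each scaling tried. There were 283 lower and 129 higher after scaling the columns to one median, and 298 lower and 146 higher after quantile normalization. The counts given for the earlier stages are without rescaling.

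**Figure D1:**
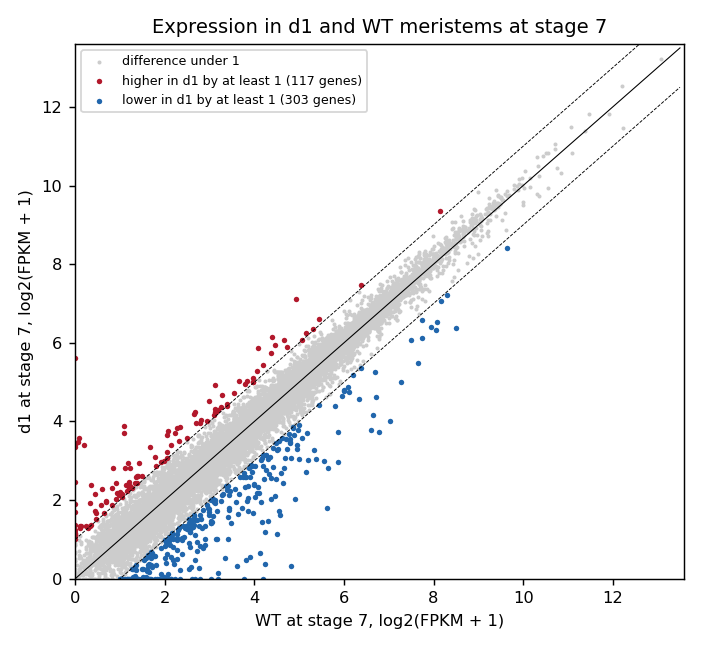
Each point is 1 of the 19757 genes, with its WT value at stage 7 on the horizontal axis and its d1 value at stage 7 on the vertical axis, both as log2(FPKM + 1). The dashed lines mark a difference of 1, beyond which lie 117 genes higher in d1 (red) and 303 genes lower in d1 (blue), and more blue points than red ones lie far from the diagonal.

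Most of the differing genes were of low to moderate abundance. Of the 303 lower genes, 131 had a mean of at least 5 FPKM over the 8 columns and 10 had a mean of at least 100 FPKM. Of the 117 higher genes, 47 reached a mean of 5 FPKM and 1 reached 100 FPKM. Among all genes compared, 13754 reached a mean of 5 FPKM and 1121 reached 100 FPKM. The share lower past the limit was 2.87% under 5 FPKM and 1.41% from 5 to 20 FPKM. It was 0.429% from 20 to 100 FPKM and 0.892% at 100 FPKM and over. The share higher past the limit was 1.17%, 0.455%, 0.258% and 0.0892% in the same classes. Both shares were thus largest under 5 FPKM. The lower genes included 37 that were listed at 0 in d1 at stage 7, and the higher genes included 12 that were listed at 0 in WT. Among all genes compared, 69 were listed at 0 in d1 at stage 7 and 45 in WT at stage 7. Very large differences were mostly decreases: 63 genes were lower by at least 2 on the log2 scale and 11 were higher by as much. Among 249 genes just inside the filter, whose second-highest column lay between 1 and 1.1 FPKM, 3 were higher (1.20%) and 7 lower (2.81%), against 0.592% and 1.53% of all genes, and among 263 genes between 0.9 and 1 FPKM, which were left out, 0 were higher and 2 lower.

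The median level of the 303 lower genes climbed with stage in WT and not in d1. Their median level in d1 was 2.69, 3.35, 2.83 and 1.68 FPKM at stages 1, 2, 4 and 7. Their median level in WT was 2.64, 2.66, 4.86 and 7.16 FPKM. The genotypes were thus close at the first 2 stages and apart at stage 4. The gap at stage 7 follows from the rule that chose the genes. The rise of WT and the fall of d1 to that stage are for the same reason a description only. WT at stage 7 was the highest of the 8 columns for 180 of these genes, or 59.4%, against 16.89% of all genes compared; because the genes were chosen for a high WT value at stage 7 relative to d1, this share is a description only. In d1, stage 7 was the lowest of the 4 d1 columns for 161 of them, or 53.1%, against 31.9% of all genes compared. A low d1 value at stage 7 was likewise part of the choice, so this share is also a description only.

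Their differences at the other stages were not used to choose them. The median difference of the 303 genes was 0.01 at stage 1, 0.15 at stage 2 and -0.59 at stage 4, where all 19757 genes had medians of 0.02, 0.01 and 0.00. At stage 4, d1 was below WT for 246 of the 303 genes, 91 of them past the limit. At stage 2, d1 was below WT for 127 of them and above it for 173. The same counts at stage 1 were 145 and 152.

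The 117 higher genes followed another course. Their median level in d1 was 1.66, 2.11, 3.15 and 7.42 FPKM at stages 1, 2, 4 and 7. Their median level in WT was 0.42, 0.89, 1.70 and 1.61 FPKM. In d1 the median was thus above WT at every stage. At stage 7 this follows from the rule that chose the genes, so the climb of d1 to that stage is a description only. Median differences were 0.26, 0.25 and 0.61 at stages 1, 2 and 4. The difference was positive for 75, 80 and 93 of the 117 genes at those stages, so this set leaned to the same side throughout.

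**Figure D2:**
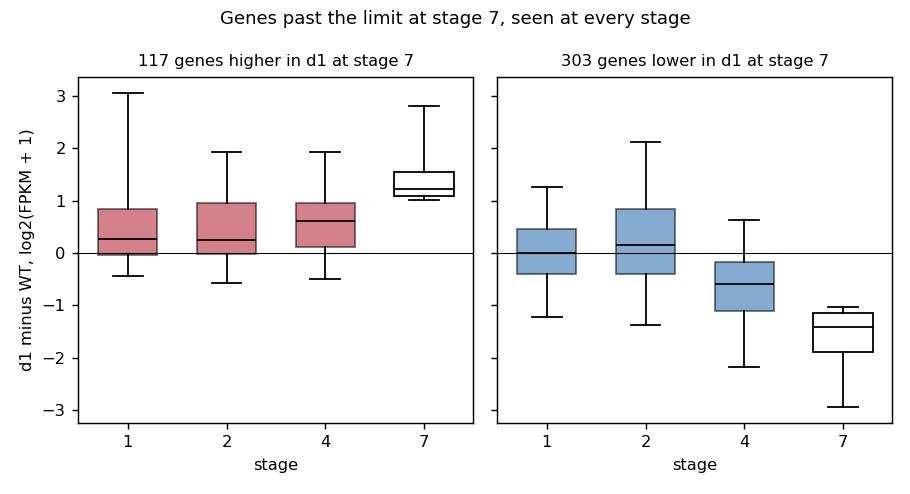
Boxes give the d1 minus WT difference in log2(FPKM + 1) at each stage for the 117 genes higher (left) and the 303 genes lower (right) in d1 at stage 7, with the median as a line, the quartiles as the box and whiskers from the 5th to the 95th percentile. The open boxes at stage 7 show the values that chose the genes; the lower genes have medians of 0.01, 0.15 and -0.59 at stages 1, 2 and 4, and the higher genes have medians of 0.26, 0.25 and 0.61.

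Stage 4 held the largest share of the same calls, and no column is shared between stages. Lower at both stages 7 and 4 were 91 genes, 30.0% of the 303 at stage 7 and 48.1% of the 189 at stage 4. With stage 2 the overlap was 28 genes, 9.24% of the stage 7 list and 12.96% of the 216 at stage 2. With stage 1 it was 27 genes, 8.91% of the stage 7 list and 30.0% of the 90 at stage 1. As shares of the 117, higher genes overlapped more evenly: 28 were shared with stage 4, 26 with stage 2 and 21 with stage 1. As shares of the other list they were less even. The 28 were 19.7% of the 142 higher genes at stage 4. The 26 were 7.69% of the 338 at stage 2, and the 21 were 6.98% of the 301 at stage 1. A further 61 genes, 20.1% of the 303, were lower at stage 7 and higher at stage 2, and 26 genes were lower at stage 7 and higher at stage 1. The opposite turn was rare, with 3 genes higher at stage 7 and lower at stage 2 and 4 genes higher at stage 7 and lower at stage 1.

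Some genes were past the limit at stage 7 and under 0.5 in that direction at the other 3 stages. There were 108 such lower genes, 35.6% of the 303, and 26 such higher genes, 22.2% of the 117. At stage 1 the corresponding numbers were 20 lower (22.2% of the lower genes of that stage) and 82 higher genes (27.2% of the higher ones). They were 120 (55.6%) and 139 (41.1%) at stage 2, and 25 (13.2%) and 28 (19.7%) at stage 4. Both shares were thus larger at stage 2 than at stage 7. The 108 genes had median differences of 0.32, 0.57 and -0.13 at stages 1, 2 and 4, and -1.27 at stage 7; the ceiling of 0.5 applied to decreases only, so positive values were free to enter. At the other end, 11 genes were lower and 7 higher past the limit at all 4 stages. Of these 18, 8 lie on chromosome 5, the chromosome of RGA1, according to their identifiers; chromosome 5 holds 1643 of all genes compared, or 8.32%.

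Whether the genotype difference at stage 7 departed from that at stages 1, 2 and 4 was tested over all 8 columns, since no test could be made within the stage. A limma fit over the 8 columns with stage as a block called 0 of 19757 genes at an adjusted p under 0.05 (0.0% of genes; smallest adjusted p = 0.484, Benjamini-Hochberg). Without adjustment, 1489 genes (7.54%) had a p under 0.05, and 988 would by chance. Of these, 934 had a more negative difference at stage 7 and 555 a more positive one, but the split depended on scaling: it was 799 against 736 with the columns scaled to one median and 874 against 793 after quantile normalization. The number itself fell below chance in 2 alternatives, to 820 with stage 1 left out and 616 without the stage block. The spread in this test is that of the d1 minus WT difference between stages 1, 2 and 4, with 2 residual degrees of freedom, and not the spread between plants or libraries. No single gene below is therefore shown to behave differently at stage 7. All the sizes that follow are the differences between combined values.

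The largest differences in either direction belonged in part to genes that were near 0 in 1 genotype throughout. Of the 10 genes with the largest positive difference at stage 7, 4 were past the limit at each of the other stages, 2 at some of them and 4 at none, and 6 of the 10 had at least 1 column listed at 0. OS05G0230501 (chromosome 5) had 47.6 FPKM in d1 at stage 7 and was listed at 0 in WT. OS03G0855700 (chromosome 3) had 7.93, 8.56, 11.2 and 10.95 FPKM in d1 at stages 1, 2, 4 and 7, against 0.063, 0.067, 0.033 and 0.059 FPKM in WT. Its difference of 3.50 at stage 7 lay beside 3.07, 3.16 and 3.56 at the earlier stages, so it was as far apart in the genotypes at the first stage as at the last.

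Of the 10 genes with the largest negative difference, 3 were past the limit at each other stage, 7 at some and 0 at none. OS09G0109600 (chromosome 9) had 0.57, 0.64, 0.33 and 0.26 FPKM in d1 at stages 1, 2, 4 and 7, against 5.77, 6.85, 34.4 and 27.2 FPKM in WT. Its difference was larger at the last 2 stages than at the first 2, being -2.11, -2.26, -4.73 and -4.48. OS06G0621550 (chromosome 6) was listed at 0 in d1 at stages 1, 2 and 7 and had 7.60 FPKM at stage 4, against 7.15, 24.5, 7.34 and 17.4 FPKM in WT. At stage 4 the genotypes had nearly equal values for this gene, with a difference of 0.05, so it changed abruptly between columns. The table does not pair these identifiers with gene names, and no role is given for them here.

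Genes whose level changed with development were more often among those that differed. In the mean of both genotypes, 338 genes rose by at least 1 on the log2 scale between stages 4 and 7, and 27 of them, 7.99%, were higher in d1 at stage 7 while 10 were lower. Among 184 genes that fell by at least 1, 3 were higher in d1 and 10 lower (5.43%). Among the remaining 19235 genes, 87 were higher and 283 lower, so most of the differing genes belonged to the large group whose mean level was steady. The d1 value at stage 7 enters both measures, so these shares are linked by construction.

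Calls were spread over all 12 chromosomes. Chromosome 3 held the largest number of lower genes, 54, or 2.01% of its genes, and chromosome 11 the smallest share, 0.798%. For higher genes chromosome 10 had the largest share, 12 genes or 1.22%. Of the 303 lower genes, 34 (11.2%) lay next to another lower gene in the order of identifiers, as 17 pairs. Of the 117 higher genes, 6 (5.13%) did so, as 3 pairs. The numbers that random placement would give were not computed, so these counts are a description only. Overlapping or antisense neighbours cannot be told apart in FPKM values made without a stated strand setting.

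Gene groups were examined with lists of identifiers written down from general knowledge. The table does not pair identifiers with names, so members are given by their list and their values and not by name. Except where stated, a member was used only where the NCBI gene table had the name it was written for on the same chromosome and in the same order. That left 76 members past the filter in the lists fixed first, of which 1 was higher and 3 were lower past the limit and 72 were within it. Their median difference was 0.09, beside 0.01 for all genes. Lists were chosen with earlier results of these data known, and each holds only some of the genes of its pathway.

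The tissue carried the genes that mark a meristem in both genotypes. Class I KNOX homeobox genes keep meristem cells undifferentiated, and 3 members passed the filter. They had 251, 179 and 42.2 FPKM in d1 at stage 7, against 234, 163 and 39.2 FPKM in WT, with differences of 0.10, 0.14 and 0.10. None reached the limit at any stage. At stage 4 the first 2 of these members were at 478 and 294 FPKM in d1 and at 476 and 317 FPKM in WT, so both genotypes had lower KNOX levels at stage 7 than at stage 4. In a dissected tissue, fewer cells of a type and less RNA per cell cannot be told apart.

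Markers of leaf tissue differed between the genotypes in a way that changed from stage to stage. The photosynthesis list had 11 identifiers past the filter, of which only 1 was matched by name. The summed level at stage 7 of all 14 identifiers of the list, past the filter or not, was 162.0 FPKM in d1 and 161.6 FPKM in WT. A single identifier gave 72.9 FPKM of this in d1 and 61.5 FPKM in WT. Of the 11 differences, 9 were negative and 1 was past the limit. The median differences of the 11 were 1.64, -0.80, 0.58 and -0.12 at stages 1, 2, 4 and 7. The matched member, written down for a chlorophyll a/b binding protein, had 11.9, 1.90, 3.26 and 1.69 FPKM in d1 at stages 1, 2, 4 and 7, against 2.79, 7.97, 0.99 and 7.13 FPKM in WT. Its difference changed sign at each step, 1.77, -1.63, 1.097 and -1.59, as did the median of the list. The share of leaf tissue in each dissection and its part in the differences were not tested.

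The MADS-box list for flowers and inflorescences had 5 members past the filter, of which 3 came on at stage 7 in both genotypes. MADS-box transcription factors of this list include those that set the identity of floral organs. One of the 3 had at most 0.04 FPKM in any column of stages 1, 2 and 4, and 39.0 FPKM in d1 against 26.3 FPKM in WT at stage 7. A second had 5.99 FPKM in d1 and 4.66 FPKM in WT at stage 7, and another had 43.1 FPKM in d1 and 49.8 FPKM in WT, after under 1 FPKM at all earlier stages. Among the other 2 members, one was present from stage 1 on, with 18.5, 27.8, 41.6 and 31.8 FPKM in d1 at stages 1, 2, 4 and 7, against 16.8, 21.3, 43.1 and 32.6 FPKM in WT. The last declined over the stages and had 0.43 FPKM in d1 and 0.10 FPKM in WT at stage 7. None of the 5 members was past the limit, and their differences ran from -0.20 to 0.55 with a median of 0.30.

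Panicle branching and spikelet meristem genes showed small differences of mixed sign. Of 6 members, 0 were past the limit, 4 had negative and 2 positive differences, between -0.22 and 0.58. The member with the highest level at the earlier stages, written down for an SBP-box branching regulator, had 1635, 1558, 772 and 153 FPKM in d1 at stages 1, 2, 4 and 7, against 1917, 1428, 977 and 177 FPKM in WT. It thus declined in parallel in both genotypes. A member of the bHLH class that starts axillary meristems had 190, 194, 155 and 50.5 FPKM in d1, against 127, 114, 132 and 55.7 FPKM in WT. Its difference was 0.58 and 0.77 at stages 1 and 2, then 0.24 and -0.14 at stages 4 and 7.

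All 8 members of the DNA replication and cell division list, which holds subunits of the replicative helicase, the sliding clamp and a cyclin-dependent kinase, had positive differences at stage 7, between 0.05 and 0.25, with a median of 0.16; over all genes 51.3% of the differences were positive. The clamp was at 273 FPKM in d1 and 235 FPKM in WT. The median of that list was -0.01, 0.05 and 0.20 at stages 1, 2 and 4. None reached the limit. Among 7 meiosis members, 5 had positive and 2 negative differences, the largest being 0.75 for a gene with 6.09 FPKM in d1 and 3.202 FPKM in WT, and 0.56 for one with 9.64 FPKM in d1 and 6.20 FPKM in WT. At stage 1 the first had 6.45 FPKM in d1 and 5.59 FPKM in WT and the second had 11.9 FPKM in d1 and 10.9 FPKM in WT, so WT declined further than d1. Of 10 anther and tapetum members in the table, 5 passed the filter and had differences between -0.33 and 0.04.

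Hormone lists held no gene past the limit at stage 7. Differences ran from -0.15 to 0.35 in 5 gibberellin members, from -0.02 to 0.37 in 6 brassinosteroid members, from 0.03 to 0.22 in 5 cytokinin members and from -0.31 to 0.20 in 6 auxin members. The gibberellin member with the highest level, a DELLA repressor of the pathway, had 122 FPKM in d1 and 99.9 FPKM in WT at stage 7. The brassinosteroid receptor member had 123.7 FPKM in d1 and 125.3 FPKM in WT. The other G protein members were the beta subunit, with 52.1 FPKM in d1 and 49.3 FPKM in WT, and a gamma subunit, with 3.48 FPKM in d1 and 2.74 FPKM in WT. The 5 grain size members had differences between -0.25 and 0.24.

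The clock list held a decrease in an abundant gene. A member written down for a morning-phased MYB transcription factor of the central oscillator had 58.5, 49.0, 43.3 and 44.1 FPKM in d1 at stages 1, 2, 4 and 7, against 53.8, 64.2, 83.9 and 201 FPKM in WT. It was flat over the stages in d1 and climbed in WT, and its difference was 0.12, -0.38, -0.94 and -2.16. The stage 7 difference departed from the mean of the other stages by -1.76 ± 0.41 (moderated SE of the limma fit; adjusted p = 0.63, not past the threshold). An evening-phased member had 224, 198, 226 and 284 FPKM in d1, against 280, 273, 251 and 205 FPKM in WT. That member was below WT at stages 1, 2 and 4 and above it at stage 7, with a difference of 0.47 within the limit. The remaining member, at 12.5 FPKM in d1 and 11.6 FPKM in WT, had a difference of 0.09.

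One abiotic stress member was also lower. It was written down for a cold-responsive AP2-type transcription factor and had 1.57, 11.4, 0.44 and 0.20 FPKM in d1 at stages 1, 2, 4 and 7, against 0.81, 2.75, 4.57 and 4.80 FPKM in WT. It was higher in d1 at the first 2 stages and lower at the last 2, with differences of 0.51, 1.72, -1.95 and -2.28. The other 3 members of the list lay within the limit, between -0.01 and 0.51.

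The defence and jasmonate list moved in no common direction. Of 4 matched members past the filter, 1 was higher past the limit, with 138 FPKM in d1 and 29.4 FPKM in WT at stage 7. The other 3 had differences of -0.21, -0.09 and 0.23, and the median of the list was 0.07. An identifier of that list without a name match, written down for a WRKY transcription factor, was lower past the limit, with 1.32, 5.62, 2.67 and 3.55 FPKM in d1 at stages 1, 2, 4 and 7, against 2.60, 2.22, 5.87 and 16.3 FPKM in WT.

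A pair of further groups were looked at because of values already seen, and their counts support nothing beyond description. The first was a list of heat shock proteins, co-chaperones and related genes. Many of them help to fold other proteins, and only some are induced by heat. Of 17 identifiers, all past the filter, 2 were matched by name. At stage 7, 8 were lower in d1 past the limit and 0 higher, 16 of the 17 had negative differences, and the median difference was -0.77. At stages 1, 2 and 4 the medians were 0.16, -0.05 and -0.14, and 4, 9 and 11 members were negative. The levels at stage 7 ran from 0.11 to 2820 FPKM in d1 with a median of 44.3 FPKM, and from 8.10 to 4796 FPKM in WT with a median of 129 FPKM. For 12 of the 17, WT at stage 7 was the highest of all 8 columns.

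Within that list the decreases differed in size and history. A member written down for a cytosolic HSP70 had 31.0, 15.4, 33.9 and 12.3 FPKM in d1 at stages 1, 2, 4 and 7, against 27.9, 18.6, 42.9 and 109 FPKM in WT, and a difference of -3.04 at stage 7. A matched HSP90 member had 141, 98.97, 126 and 94.5 FPKM in d1, against 104, 81.1, 120 and 213 FPKM in WT. It was above WT at stages 1, 2 and 4, by 0.44, 0.28 and 0.07, and below WT by 1.17 on the log2 scale at stage 7. Its stage 7 difference departed from the other stages by -1.43 ± 0.16 (moderated SE, limma), with an adjusted p of 0.484 that 29 genes share and that did not pass the threshold. The matched chaperone of the endoplasmic reticulum had 143 FPKM in d1 and 199 FPKM in WT, a difference of -0.47 within the limit. Another member was low in d1 at every stage, with at most 0.24 FPKM in d1 against 3.28, 2.80, 12.9 and 8.10 FPKM in WT. Heat shock factors are a family of transcription factors, some of which switch these genes on. Of 3 members, 1 was past the limit, with 0.22 FPKM in d1 and 5.77 FPKM in WT at stage 7. At stage 1 it had 3.84 FPKM in d1 and 0.28 FPKM in WT. The other 2 were within the limit at stage 7 and of opposite sign. They had 2.59 and 10.6 FPKM in d1 against 3.65 and 7.56 FPKM in WT, differences of -0.37 and 0.44.

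The second group was a list of pathogenesis-related proteins, small defence proteins that accumulate after infection and also in ageing or developing tissue. Of 14 identifiers in the table, 6 passed the filter, 4 of them on columns other than d1 at stage 7, and 1 was matched by name. All 6 were higher in d1 past the limit at stage 7, with differences between 1.52 and 2.80. Passing the filter depended for some on the d1 value itself, so the count of 6 is no measure of the list. The 8 identifiers that did not pass reached at most 1.81 FPKM in d1 and 0.53 FPKM in WT at stage 7. The matched member, which is the higher member of the defence list and was written down for a PR10-type protein, had 0.12, 0.70, 30.2 and 138 FPKM in d1 at stages 1, 2, 4 and 7, against 0.20, 0.29, 18.4 and 29.4 FPKM in WT. A second had 1.51, 1.15, 7.63 and 69.4 FPKM in d1, against 0.39, 0.29, 0.47 and 20.1 FPKM in WT. Levels of all 6 were highest at stage 7 in both genotypes, and the d1 level was above the WT level at that stage in each. The matched member departed from the other stages by 1.86 ± 0.33 at stage 7 (moderated SE; adjusted p = 0.63, limma).

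**Figure D3:**
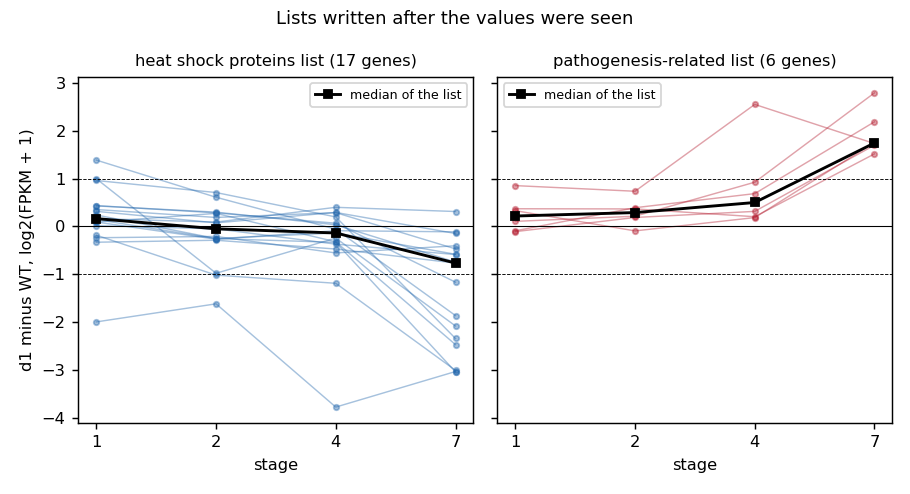
Thin lines give the d1 minus WT difference in log2(FPKM + 1) of each member of the heat shock list (left, 17 genes) and the pathogenesis-related list (right, 6 genes) at stages 1, 2, 4 and 7, squares give the list median, and dashed lines mark the limit of 1. The heat shock median is -0.77 at stage 7 after 0.16, -0.05 and -0.14, and the pathogenesis-related median is 1.75 after 0.22, 0.29 and 0.50; both lists were written after values had been seen.

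**Figure D4:**
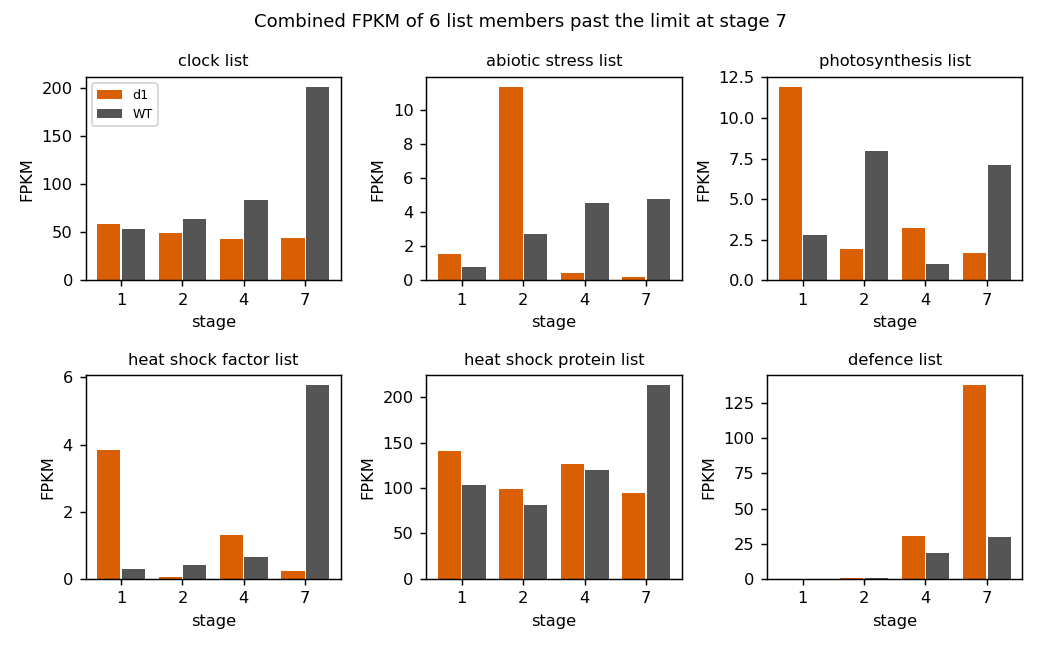
Bars give the authors' combined FPKM in d1 (orange) and WT (grey) at stages 1, 2, 4 and 7 for 6 list members past the limit at stage 7, each panel on its own scale and titled by the list. The clock member stands at 44.1 FPKM in d1 against 201 FPKM in WT at stage 7, and the defence member at 138 FPKM in d1 against 29.4 FPKM in WT; there are no error bars because each bar is 1 combined value.

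Over all lists, matched by name or not, 154 identifiers passed the filter. Of these, 13 (8.44%) were lower and 6 (3.90%) higher in d1 past the limit at stage 7. These shares include the lists written after values had been seen and describe the identifiers only. All 6 higher identifiers belong to the pathogenesis-related list. In the lists fixed first, 129 identifiers passed, of which 4 (3.10%) were lower and 1 (0.775%) higher. Among all genes the shares were 1.53% and 0.592%. The first lists too were chosen with earlier results of these data known.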

How the data were processed

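RNA-seq of 16 libraries (2 for each of 8 groups) was deposited by the authors as 1 table of FPKM per gene and group. The unit was inferred from the values and from Cufflinks and Cuffdiff, which the submitters' processing notes name with FastQC, Trimmomatic, TopHat2 and the build IRGSP-1.0. The sources used here do not give the scaling between columns. The labels state about 40 M reads of 150 bases per library, and summed FPKM per column ran from 621238 to 670519; the precision of single values is unknown. The labels call the 2 libraries of a group biological replicates.

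Values were analysed as log2(FPKM + 1) without rescaling. Of 34302 rows, 4802 were 0 in every column and 54 joined several identifiers. Whether stage 7 departs from the other stages was tested with limma 3.58.1 in R 4.3.3 (eBayes with trend, stage as block, 2.49 prior degrees of freedom), after the fit had been tested on simulated data. Alternatives were another pseudocount, filter, limit, scaling or fit.

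The genes compared and the lists were chosen with earlier results of these data known. The genes to be named were RGA1, list members paired with a name by a table, and the 10 largest differences in each direction, of which at most 2 identifiers per direction are printed. The NCBI gene table (assembly ASM3414082v1, another build) holds names but not these identifiers, so members were left unnamed. Of 377 identifiers written down, 203 were in the table, 101 of those were matched by name, chromosome and order, and 174 are not analysed here. The lists for heat shock and pathogenesis-related proteins, 76 identifiers, were added after values were seen.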

Additional observations from a re-analysis of the deposited data

Results flagged for a closer look

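Some genotype differences had one sign at stage 7 and the other at stages 1, 2 and 4. The matched HSP90 member of the heat shock list was lower in d1 at stage 7, with a difference of -1.17, and higher in d1 at the other 3 stages. In the limma fit its departure did not pass the threshold (adjusted p = 0.484). Of the 303 genes lower in d1 by at least 1 at stage 7, 29 were higher at stages 1, 2 and 4, the HSP90 member among them. In the opposite direction, 8 of the 117 genes higher in d1 by at least 1 at stage 7 were lower at the other stages. The 2 counts thus come from lists of unlike size, and the same counts were not made for the other stages. None of these genes passed the test of the stage 7 departure, in which 0 of 19757 genes were called. The counts themselves were not tested.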

How the results depend on the processing

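With a pseudocount of 0.1 in place of 1, 316 genes were higher and 582 lower in d1 at stage 7, 52 higher and 193 lower genes met the rule for stage 7 alone, and 107 higher and 197 lower genes were shared with stage 4. With a mean of at least 5 FPKM required, these counts were 47 higher and 131 lower, 8 and 51 at stage 7 alone, and 35 lower shared with stage 4, and 2 pathogenesis-related identifiers remained, both higher. With a limit of 2, 11 genes were higher and 63 lower. No result changed direction, and 38 further counts lay within 1.5 times those reported. These 38 include 10 that were 0 throughout, from the test of the stage 7 departure described below. Lower genes were 64.8% to 73.6% of those past the limit over the settings with a limit of 1, and 85.1% with a limit of 2. The test of the stage 7 departure called 0 genes under each of the 10 alternatives, with smallest adjusted p between 0.0596 with no filter and 0.836 without the stage block. At an unadjusted p under 0.05, leaving out stage 4 gave 2516 genes, leaving out stage 1 gave 820 and dropping the stage block gave 616, against 1489; the 820 and 616 lay below the 988 that chance gives. The alternatives for the added lists and for the overlap with stage 4 were chosen after seeing the data. No paired analysis was possible because the authors had combined the 2 libraries of each group, so replicate numbers carry no values; leaving out a replicate could not be done for the same reason.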
